A study of Caenorhabditis elegans with 6 samples.

Results

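The 10 core autophagy genes *unc-51*, *bec-1*, *vps-34*, *atg-7*, *atg-9*, *atg-18*, *lgg-1*, *lgg-2*, *epg-5* and *sqst-1* were followed through an experiment on the mitochondrial Na+/Ca2+ exchanger inhibitor CGP37157. They were chosen by name, for their known roles, and their WormBase symbols were matched to the identifiers of the count table. All 10 were found, among 46904 gene identifiers. The samples were whole worms of strain N2, the standard wild type of *C. elegans*, with no transgene or mutation named in the labels. The 3 control libraries came from untreated worms, and the 3 CGP37157 libraries came from worms kept on seeded plates with 50 µM of the compound from young adulthood. RNA was taken at day 5 of treatment, when the labels give both groups as 5 days old. The question was whether the messenger RNAs of this pathway changed with the compound. The study had linked the compound's effect on lifespan to the TOR and insulin pathways and to mitochondria. It also reported a longer life on the compound in mutants of *daf-16*, S6 kinase, sirtuin and AMP-activated kinase, and called these not involved.

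Autophagy encloses cytoplasm in a double membrane, the autophagosome, and delivers it to the lysosome to be broken down. A kinase complex starts the process, a lipid kinase complex marks the membrane where it grows, and an enzyme cascade attaches ubiquitin-like proteins of the Atg8 family to that membrane. Receptors then bind cargo to Atg8, and tethers bring the closed autophagosome to the lysosome. In *C. elegans* the pathway removes maternal protein aggregates and paternal mitochondria from the embryo, and several long-lived mutants need it for their longer life. The TOR kinase holds it back in fed animals. Much of its control acts on proteins, so the levels of these messenger RNAs do not measure how much autophagy took place.

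None of the 10 core genes changed beyond the spread between replicates. With edgeR's quasi-likelihood test, 0 of 10 passed an adjusted p of 0.05, 0 had an unadjusted p under 0.05, and the same 2 counts were 0 with DESeq2. Over all 12385 genes tested, 1.4% passed (144 higher and 29 lower in treated worms) and 4.79% had an unadjusted p under 0.05 in the edgeR fit, so that 0 of 10 is close to the background in both respects. On the log2 scale the change (CGP37157 minus control) ran from -0.05 for *sqst-1* to 0.34 for *epg-5*. Its median was 0.045 over the 10 genes and -0.014 over all genes tested. Of the 10, 8 were above 0 and 2 below, and 47.4% of all genes tested were above 0. The 8 became 5 without control replicate 1, without CGP37157 replicate 3 and with the gene-length trend of each library removed, an alternative added after the data were seen. They became 9 without control replicate 2 and with scaling by library size only. The 95% interval of the change stayed within 2-fold in either direction for 9 genes, the exception being *epg-5*, and within 1.5-fold for 7. The adjusted p was 1.00 for each of the 10. With 3 libraries a group a 2-fold change is often missed, so the intervals, and not the absence of calls, bound what could have happened. The labels do not say that the replicates were separate cultures, so the p-values measure the spread between these libraries, which may be technical.

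**Figure D1:**
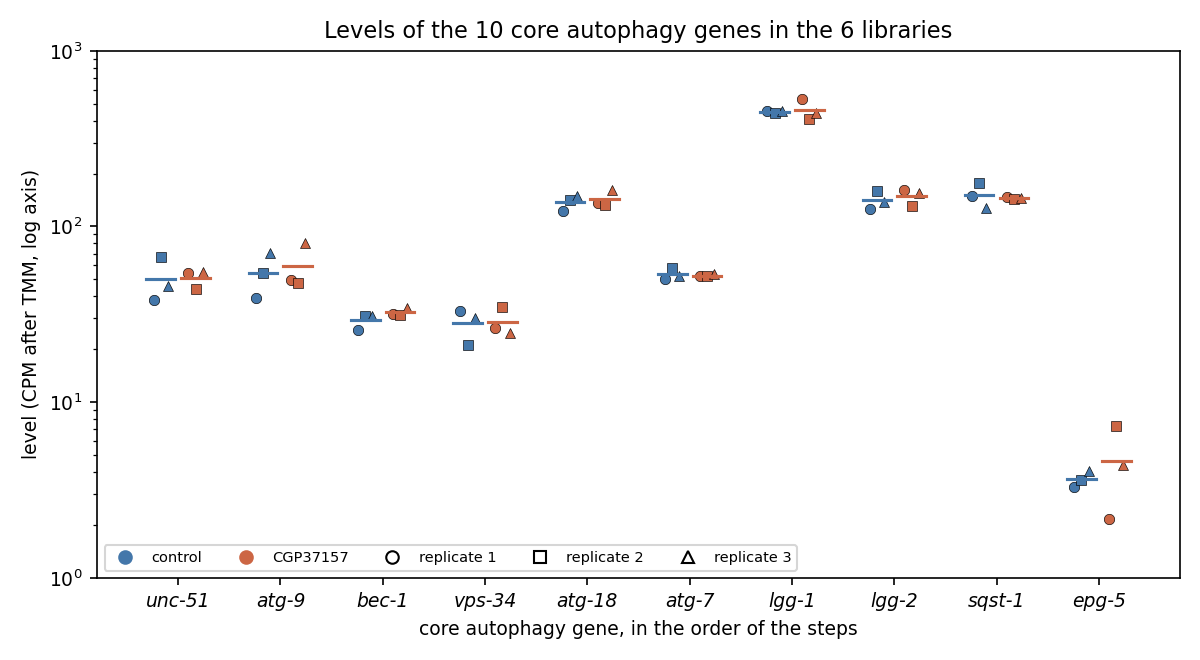
Level of each core gene (y axis, CPM after TMM, log axis) in each of the 6 libraries, with the genes on the x axis in the order of the steps, control in blue and CGP37157 in orange, marker shapes for the replicates and a bar at the mean of each group. The groups overlap in every gene except *bec-1*, and *lgg-1* lies above the other 9.

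Each library held from 21122852 to 24551795 gene counts, which gave each of these genes except *epg-5* at least 364 counts in every library. Levels are given as CPM, in which counts are divided by the size of the library and corrected by TMM normalization, whose factors lay between 0.815 and 1.13, the lowest in control replicate 2. Lists of intestine, body wall muscle, pharynx, neuron, adult hypodermis, germline, oocyte, sperm and embryo markers held 35 genes, of which 27 were tested and 0 passed. Only 1 of 3 hypodermis and 1 of 6 embryo markers were tested. The summed level of each list overlapped between the groups. The 3 body wall muscle markers *myo-3*, *unc-54* and *unc-15* had log2 fold changes of -0.37, -0.50 and -0.39, and their sum was 1963 to 4028 CPM in control and 1758 to 2419 CPM in treated worms. Of the intestine markers, the yolk gene *vit-2* was at -0.59, and *ges-1*, *elt-2* and *ifb-2* were at 0.49, 0.18 and 0.12. The pharynx markers *myo-2*, *tnc-2* and *pha-4* were at -0.56, -0.26 and 0.01. The neuron markers *rgef-1*, *unc-119*, *ric-4* and *snb-1* were at 0.36, -0.25, -0.07 and -0.10. The germline sum was 2032 to 3275 CPM in control and 2193 to 3025 CPM in treated worms. The part of these differences in the values of the autophagy genes was not tested. Among the adult hypodermis markers, the cuticle collagen *rol-6* was under 0.12 CPM in every library, and *col-19* was between 938 and 1814 CPM. Among the embryo markers, *med-1* was at 0 in all control libraries and at 0.088, 0 and 0.043 CPM in treated replicates 1, 2 and 3. Of the same list, *hlh-1*, the only gene of it tested, was between 3.17 and 4.93 CPM. The highest values of *end-1*, *end-3*, *tbx-37* and *pes-10* were 0.669, 0.704, 0.257 and 1.75 CPM. In whole worms, fewer cells of a type and less RNA per cell cannot be told apart. Control replicate 2 also differed from the rest by gene length. Per doubling of the exon length its log2 levels shifted by -0.16, against values between -0.07 and 0.10 in the other 5 libraries.

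The initiation step is run by *unc-51*, the worm Atg1/ULK kinase, which also has a role in axon growth. It lies on chromosome V from 19995986 to 20004485 on the minus strand (WBcel235), in a single annotated transcript. Its levels were 38.1, 67.3 and 45.8 CPM in control replicates 1, 2 and 3 and 54.5, 43.9 and 55.0 CPM in treated replicates 1, 2 and 3. Both the lowest and the highest value were control libraries, so the treated group lay inside the control range. The mean was 50.4 ± 15.1 CPM (SD, n = 3) in control and 51.2 ± 6.27 CPM (SD, n = 3) in the treated group. This was a log2 fold change of 0.02 (standard error 0.24), with a 95% interval from 0.697-fold to 1.48-fold. It was 0.29 without control replicate 2, the highest library, and -0.14 without control replicate 1, the lowest.

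The gene *atg-9* encodes the transmembrane protein whose vesicles seed the growing membrane. It lies on chromosome V from 349385 to 359658 on the plus strand. Its levels were 39.3, 54.1 and 70.2 CPM in control and 49.5, 47.9 and 80.9 CPM in treated replicates 1, 2 and 3. Replicate 3 was the highest library in both groups. The difference between the means, 54.5 ± 15.4 CPM (SD, n = 3) in control and 59.4 ± 18.6 CPM (SD, n = 3) in the treated group, was therefore smaller than that between libraries of the same group. Its log2 fold change of 0.12 (standard error 0.28) turned to -0.15 without CGP37157 replicate 3 and to -0.06 without control replicate 1. Its 95% interval, 0.708-fold to 1.68-fold, was the widest after that of *epg-5*.

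Membrane nucleation depends on the lipid kinase VPS-34, a class III phosphatidylinositol 3-kinase, and on BEC-1, the worm Beclin that holds its complex together. The gene *bec-1* lies on chromosome IV from 5661141 to 5664425 on the minus strand. Its levels were 25.7, 31.0 and 30.8 CPM in control and 31.7, 31.5 and 34.6 CPM in treated replicates 1, 2 and 3. It was the only 1 of the 10 genes whose groups did not overlap, with all treated values above the control values. Over all genes tested, 7.54% had groups that did not overlap, in either direction, so 1 of 10 is close to the background. Groups that do not overlap must differ in the same direction in each of the 3 replicate numbers, so this adds nothing for *bec-1*. No other core gene did so, and 19.8% of all genes tested did. The lowest treated library (31.5 CPM) was next to the highest control library (31.0 CPM), and the means were 32.6 ± 1.72 and 29.2 ± 3.00 CPM (SD, n = 3 each). A log2 fold change of 0.16 resulted (standard error 0.20, 95% interval 0.826-fold to 1.51-fold). It stayed above 0 in all 14 alternative fits, between 0.08 and 0.21.

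The gene *vps-34*, on chromosome I from 6028486 to 6033458 on the plus strand, encodes the kinase itself. Its levels were 33.0, 21.2 and 29.97 CPM in control and 26.6, 34.8 and 24.9 CPM in treated replicates 1, 2 and 3. Control replicate 2 was the lowest library here, and the highest for *unc-51*. The means were 28.0 ± 6.15 and 28.7 ± 5.30 CPM (SD, n = 3 each), a log2 fold change of 0.04 (standard error 0.24, 95% interval 0.707-fold to 1.48-fold). It was -0.13 without control replicate 2, the library with the strongest shift by gene length, and also -0.13 without CGP37157 replicate 2, the highest library.

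The product of VPS-34, phosphatidylinositol 3-phosphate, is read by ATG-18, a WD-repeat protein of the WIPI family. Its gene lies on chromosome V from 8629174 to 8631327 on the minus strand. The levels of *atg-18* were 122, 142 and 149 CPM in control and 136, 132 and 161 CPM in treated replicates 1, 2 and 3. As for *atg-9*, replicate 3 was the highest in both groups, with a narrower range. The means were 138 ± 14.3 and 143 ± 15.7 CPM (SD, n = 3 each), and the log2 fold change was 0.06 (standard error 0.19). Its 95% interval began at 0.771-fold and stayed within a 1.5-fold change.

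**Figure D2:**
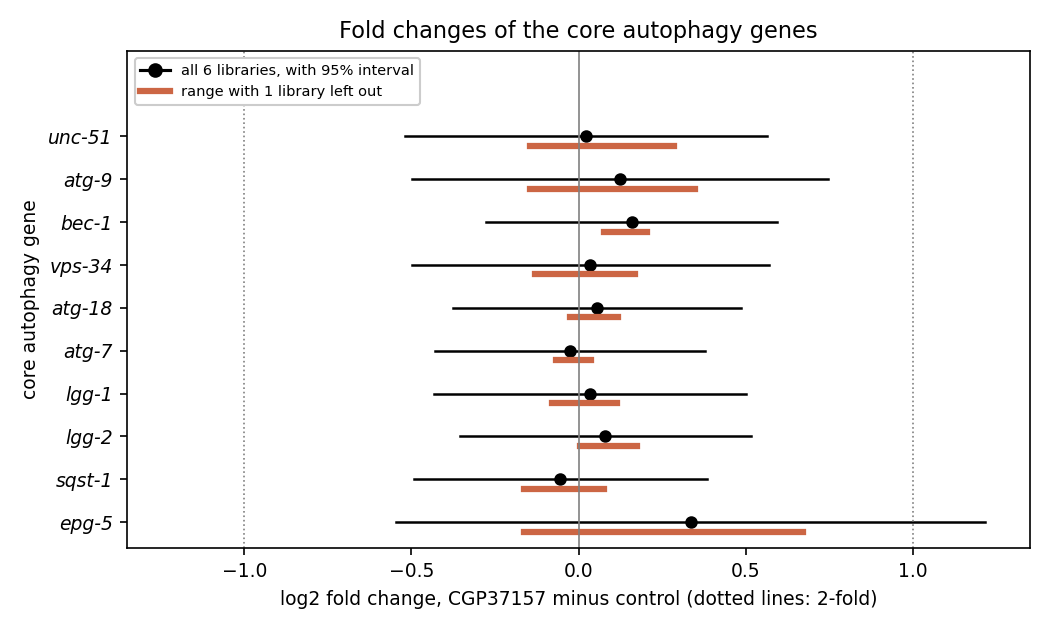
Log2 fold change of each core gene (x axis, CGP37157 minus control) with its 95% interval from edgeR's quasi-likelihood fit in black, and the range of the same value with 1 library left out in orange, with dotted lines at a 2-fold change. All 10 intervals include 0, and that of *epg-5* alone passes a dotted line.

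In the conjugation step ATG-7, the E1-like enzyme, activates Atg8 and Atg12 for attachment to lipid and to Atg5. The gene *atg-7* lies on chromosome IV from 11078682 to 11081055 on the minus strand. It was among the steadiest of the 10, at 50.3, 58.0 and 52.2 CPM in control and 52.0, 52.0 and 53.6 CPM in treated replicates 1, 2 and 3. The treated libraries lay inside the control range, and the coefficient of variation was 1.80% among them. On the log2 scale the difference was -0.03 (standard error 0.18). Its 95% interval, 0.742-fold to 1.30-fold, was the narrowest of the 10.

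The worm has a pair of Atg8 proteins, LGG-1 and LGG-2, of the GABARAP and LC3 types, which coat the autophagosome and are the usual markers of it. The gene *lgg-1*, on chromosome II from 6346960 to 6347719 on the minus strand, was the most abundant of the 10. Its levels were 456, 441 and 456 CPM in control and 533, 409 and 443 CPM in treated replicates 1, 2 and 3. The control libraries were close together (coefficient of variation 1.89%), and the treated ones lay on both sides of them (13.8%). The means were 451 ± 8.52 and 462 ± 63.8 CPM (SD, n = 3 each). A log2 fold change of 0.03 followed (standard error 0.21, 95% interval 0.741-fold to 1.42-fold), and it was -0.08 without CGP37157 replicate 1.

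The gene *lgg-2* lies on chromosome IV from 10934196 to 10935903 on the minus strand. Its levels were 125, 158 and 138 CPM in control and 160, 130 and 155 CPM in treated replicates 1, 2 and 3, so that the groups covered nearly the same range. On the log2 scale *lgg-2* differed by 0.08 (standard error 0.20, 95% interval 0.782-fold to 1.43-fold). Within a library, the ratio of *lgg-1* to *lgg-2* counts does not depend on the normalization. It was 3.64, 2.78 and 3.30 in control and 3.32, 3.15 and 2.85 in treated replicates 1, 2 and 3. The log2 ratio averaged 1.69 in control and 1.63 in treated worms, a difference of -0.055, in a two-sided exact permutation test with p = 0.8, where 3 libraries against 3 cannot go below 0.1. The balance of the Atg8 messages thus differed by less than the spread between replicates.

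The receptor SQST-1, the worm p62, binds ubiquitin-tagged cargo and Atg8 and is itself degraded with its cargo. Its gene lies on chromosome IV from 12034282 to 12036891 on the plus strand. The levels of *sqst-1* were 148, 177 and 127 CPM in control and 147, 143 and 145 CPM in treated replicates 1, 2 and 3. The treated libraries were close together, with a coefficient of variation of 1.32%, against 16.6% in control worms, whose range enclosed them. A difference in spread between groups of 3 libraries was not tested. Between the means the log2 fold change was -0.05 (standard error 0.20, 95% interval 0.711-fold to 1.30-fold). It turned to 0.08 without control replicate 2, the highest library.

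EPG-5 tethers the autophagosome to late endosomes and lysosomes. Its gene, on chromosome II from 6598344 to 6609365 on the minus strand, is the longest of the 10, with 7291 bases of exon sequence, and its level was by far the lowest. The raw counts of *epg-5* were 79, 62 and 89 in control and 49, 199 and 102 in treated replicates 1, 2 and 3. The levels were 3.30, 3.60 and 4.06 CPM in control and 2.16, 7.27 and 4.36 CPM in treated worms. The treated group held both the lowest and the highest library, with a coefficient of variation of 55.8%, against 10.4% in control. Between the groups *epg-5* differed by 0.34 on the log2 scale (standard error 0.40), with a 95% interval from 0.685-fold to 2.32-fold. A single library decided its direction. It was -0.16 without CGP37157 replicate 2 and 0.67 without CGP37157 replicate 1, and neither passed.

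Those 2 treated libraries also differed in the shift by gene length, which was 0.10 per doubling of length in replicate 2 and -0.07 in replicate 1. With the length trend of each library removed, an alternative added after the data were seen, the log2 fold change of *epg-5* was 0.21. The part of the length shift in the spread of *epg-5* was not tested. The gene *vps-33.2*, on the opposite strand from 6601216 to 6603459, lies inside *epg-5* and shares 8 exonic bases with it. Whether the counting used strand is not given in the sources used here. The levels of *vps-33.2* were 20.7, 13.9 and 25.2 CPM in control and 21.1, 24.7 and 24.3 CPM in treated replicates 1, 2 and 3. The part of its reads in the counts of *epg-5* was not tested.

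**Figure D3:**
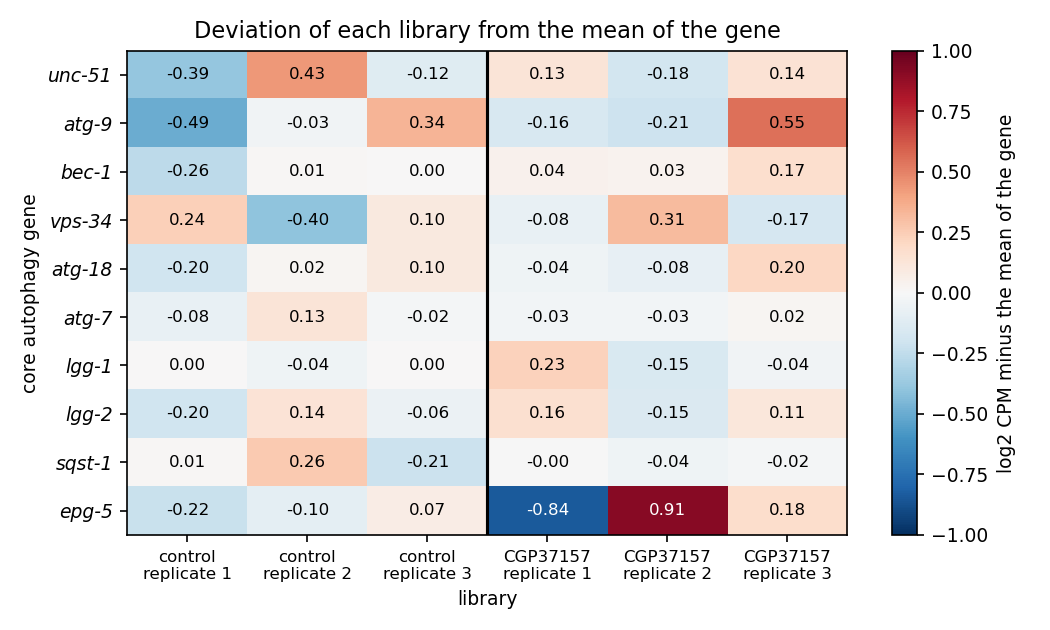
Deviation of each library (x axis, control left and CGP37157 right of the black line) from the gene's mean over the 6 libraries, as log2 CPM (colour and printed value), for each core gene (y axis). The largest deviations are those of *epg-5* in CGP37157 replicates 1 (-0.84) and 2 (0.91), and no library is high or low in all 10 genes.

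Across the 10 genes no library stood apart in 1 direction. The median deviation of the 10 from their control mean lay between -0.15 in control replicate 1 and 0.16 in CGP37157 replicate 3. Summed over the 10 genes, the level was 1041, 1153 and 1103 CPM in control and 1193, 1032 and 1158 CPM in treated replicates 1, 2 and 3. Of this sum *lgg-1* made up between 38.3% and 44.7%, with overlapping ranges in the groups. The sums of the groups overlapped as well.

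Levels of different genes were compared per kilobase of exon sequence, as means over the 6 libraries. In this measure *lgg-1* stood at 645 CPM per kilobase, *lgg-2* at 139, *atg-18* at 77.8 and *sqst-1* at 65.6. A second group followed with *atg-7* at 25.4, *bec-1* at 23.1, *unc-51* at 17.5, *atg-9* at 15.9 and *vps-34* at 10.1, and *epg-5* came last at 0.566. The Atg8 messages, the lipid-binding protein and the receptor were thus above the kinases, the Beclin, the E1-like enzyme and the tether. The order of *lgg-1* and *lgg-2* was the same in 6 of 6 libraries, with a 4.63-fold difference, and *lgg-1* was 1139-fold above *epg-5*. Neighbours in the second group were not well separated. The ranges of *atg-7* (24.1 to 27.8) and *bec-1* (19.3 to 25.9) overlapped, and so did those of *unc-51* (13.2 to 23.2) and *atg-9* (10.9 to 22.5), of which *unc-51* was higher in 4 of 6 libraries. With coding length in place of exon length these pairs changed places, as given in the closing section. The ranges of *atg-18* (67.5 to 89.3) and *sqst-1* (56.2 to 78.4) overlapped as well, although *atg-18* was higher in 6 of 6 libraries.

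The remaining genes of the pathway were taken from a list of 46 in 5 groups, and all 46 were tested. None passed an adjusted p of 0.05 and 0 had an unadjusted p under 0.05, with edgeR's quasi-likelihood test and with DESeq2 alike, beside 1.4% and 4.79% of all genes tested in the edgeR fit. On the log2 scale their values ran from -0.48 to 0.43, the median being 0.094, and 37 had values above 0, beside the 47.4% of all genes tested. That count was 28 of 46 with the length trend removed, 26 without control replicate 2 and 41 with scaling by library size only. The groups overlapped in all 46, where 7.54% of all genes tested did not overlap.

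Of 9 further genes of initiation and nucleation, all 9 had values above 0, from 0.03 for *vps-15*, the partner kinase of VPS-34, to 0.28 for *epg-7*, the scaffold related to FIP200. The levels of *epg-7* were 19.9, 11.9 and 19.7 CPM in control and 18.1, 24.0 and 20.5 CPM in treated replicates 1, 2 and 3, so that control replicate 2 alone lay below the rest. Of 8 further genes of conjugation and Atg8 processing, 7 were above 0, from -0.04 for *atg-16.1*, part of the complex that places Atg8 on lipid, to 0.18 for *atg-4.1*, a protease that trims Atg8. Of 9 receptors, scaffolds and cargo genes, 7 were above 0, from -0.04 for *pdr-1*, the worm parkin, to 0.37 for *sepa-1*, a cargo bridge for P granule proteins in embryos. The level of *sepa-1* was low, 4.30 ± 1.81 CPM (SD, n = 3) in control and 5.58 ± 2.11 CPM (SD, n = 3) in the treated group.

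Among 11 further genes of tethering and fusion, 8 were above 0. They ranged from -0.14 for *vps-41* to 0.43 for *vps-11*, both subunits of the HOPS tether. The levels of *vps-11* were 20.4, 10.9 and 26.7 CPM in control and 20.7, 28.9 and 28.6 CPM in treated replicates 1, 2 and 3. Its log2 fold change had a 95% interval from 0.833-fold to 2.18-fold. As with *epg-7*, control replicate 2 was the lowest library.

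The 9 upstream regulators held the gene with the smallest p of the list. The gene *mxl-3* encodes a MAX-like factor that holds down lysosomal lipase genes in fed worms, opposite to HLH-30, the worm TFEB. Its levels were 49.3, 76.6 and 42.3 CPM in control and 40.5, 46.7 and 33.8 CPM in treated replicates 1, 2 and 3. The groups overlapped, and control replicate 2 was the highest library. On the log2 scale *mxl-3* differed by -0.48 (adjusted p = 1.00), with a 95% interval from 0.484-fold to 1.07-fold, and by -0.18 without control replicate 2. The other end of this group was *daf-15*, the worm Raptor of the TOR complex, at 0.16. The values were 0.02 for *hlh-30*, 0.03 for *daf-16*, the FOXO factor of the insulin pathway, and -0.09 for *let-363*, the TOR kinase, 3 genes named after their values were seen.

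**Figure D4:**
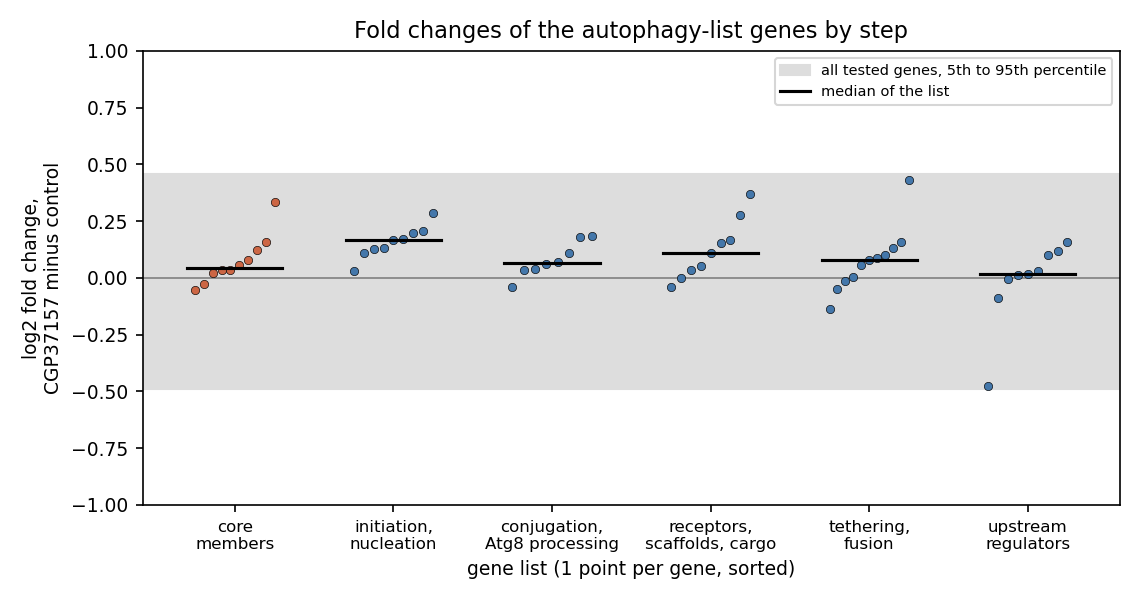
Log2 fold change (y axis, CGP37157 minus control) of each gene of the pathway by group (x axis), with the core genes in orange, the other lists in blue, black bars at the medians and a grey band from the 5th to the 95th percentile of all genes tested (-0.49 to 0.46). All 56 genes lie inside the band.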

How the data were processed

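RNA of 6 whole-worm samples was sequenced on TruSeq Stranded mRNA libraries with paired-end reads. The authors deposited raw counts per gene identifier. Their score values, scaled counts that the authors rounded, and their fold changes and p-values were not used. The submitters' processing notes name HISAT2, featureCounts, DESeq2 and edgeR, and the genome build is not given in the sources used here. Counts were identical in both deposited tables. Positions and lengths came from the Ensembl annotation of WBcel235, release 115, and symbols from its gene table. The listed *epg-1* and *epg-11* were matched as *atg-13* and *prmt-1*.

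Counts were tested with edgeR 4.0.16 (quasi-likelihood, TMM) in R 4.3.3, keeping genes that reached 1 CPM in 3 or more of 6 libraries, with condition as the only term and Benjamini-Hochberg adjustment over 12385 genes. Standard errors and 95% intervals were derived from the test statistic. On counts simulated for this comparison, on 12385 genes with 200 changed, it found 96% of 4-fold and 37% of 2-fold changes, with 4 false calls. DESeq2 1.42.0, the likelihood ratio test, other scalings and filters, a block on the replicate number and fits without each library were alternatives. No pair of replicates agreed within sampling noise (chi-square over its degrees of freedom 47.5 or more). The members and lists were chosen with earlier results of these data known. Named genes are the 10 core genes, any listed gene with an unadjusted p under 0.05, also in an alternative fit, and the highest and lowest value of each group. Also named, after the values were seen, are *hlh-30*, *daf-16*, *let-363* and *dct-1*, the last for its same direction in each replicate number. A planned search of promoter motifs was not run, since no sequence was used here.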

Additional observations from a re-analysis of the deposited data

How the results depend on the processing

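The count of called core genes was 0 in all 14 alternatives, and so was that of the other 46 genes. At an unadjusted p under 0.05 the core count was 0 in each, and the other list gave *mxl-3* and *vps-11* without control replicate 3 and *epg-2* without CGP37157 replicate 1. Over all genes the count was 260 with DESeq2 and 274 with no low-count filter, against 173, and between 130 and 194 with a library left out. The median of the 10 core genes lay between -0.011 and 0.112. Directions of values this near 0 were not stable. With the length trend removed, chosen after seeing the data, *unc-51* was at -0.058, *vps-34* at -0.0053 and *atg-18* at -0.013, and without TMM factors *atg-7* was at 0.019. With a library left out the log2 fold change ran from -0.14 to 0.29 for *unc-51*, -0.13 to 0.17 for *vps-34*, -0.069 to 0.036 for *atg-7*, -0.15 to 0.35 for *atg-9*, -0.026 to 0.12 for *atg-18*, -0.081 to 0.11 for *lgg-1*, -0.16 to 0.67 for *epg-5*, -0.16 to 0.075 for *sqst-1*, and -0.16 to 0.033 for the log2 ratio of *lgg-1* to *lgg-2*. The cause was not tested.

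Per kilobase of coding length the levels were 1237 CPM for *lgg-1*, 340 for *lgg-2*, 113 for *atg-18*, 27.4 for *bec-1*, 27.3 for *atg-7* and 20.6 for *atg-9*, which put *bec-1* above *atg-7* and *atg-9* above *unc-51*. In the titles the control and treated library of a number end in the same label, which is not explained. Residual correlations between libraries of the same number were 0.074, -0.54 and 0.40. They were not compared with those between different numbers, so they cannot decide on pairing. Whether the libraries were handled in pairs is unknown. In the fit with a replicate block, 137 genes were called, 0 of them core genes, and the value of *epg-5* was 0.18. Between libraries of the same number, *bec-1*, *vps-11*, *dct-1* and *daf-16* were higher in the treated library in 3 of 3 and *mxl-3* was lower in 3 of 3. These are 1 of 10 core and 4 of 46 other genes, against 19.8% of all genes tested with 1 direction in all 3. For *bec-1* this follows from the groups not overlapping. For *epg-5*, at 49 to 199 counts, the counting error of a library was between 7.09% and 14.3%, less than the spread of 55.8% among treated libraries.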
